A study of Caenorhabditis elegans with 4 samples.

Results

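The regions described are the RNA polymerase II peaks of chromosome V of Caenorhabditis elegans, the rows of the authors' combined peak list that lie on that chromosome, whatever their width or q value. They numbered 584 of the 6507 listed peaks (8.97%), although V makes up 20.8% of the length of all 6 nuclear chromosomes, each measured to its last peak. That share is lowered by chromosome I, which held 3028 of the listed peaks (46.5%) on 15.04% of the length. Of the 3479 peaks outside chromosome I, V held 16.8%, on 20.8 Mb against 64.1 Mb for II, III, IV and X together. The 20.8% of the length given above counts chromosome I, so it is not the match for this share. The study mapped the polymerase in hermaphrodites of N2, the wild-type laboratory strain, at larval stage L3 and 20 °C. Chromatin was precipitated with 8WG16, a mouse monoclonal antibody to the heptapeptide repeat of the polymerase's largest subunit, AMA-1, in 2 ChIP libraries, and 2 libraries of unprecipitated input DNA were made alongside. The list combines the replicates and holds no read counts, so the depth of the libraries and the spread between replicates are unknown here. Whole larvae were used, so a peak is a signal summed over all tissues, and fewer cells with polymerase on a region and less polymerase per cell cannot be told apart.

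RNA polymerase II transcribes all protein-coding genes and many small nuclear RNA genes. In ChIP it is found where the enzyme gathers near transcription start sites and along the bodies of genes that are being transcribed, so strongly transcribed genes tend to give wide regions. The autosomes of this nematode have a central part, where recombination is rare and many widely expressed, conserved genes lie, and arms with more recombination, more repeats and more members of young gene families. Chromosome V is the longest and is known for its large families of chemoreceptor genes, whose products mostly act in small numbers of sensory neurons.

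The gene names of the RefSeq table for assembly WBcel235 show that content. Of its 19983 protein-coding genes, 4995 are on V. V holds 888 of the 1308 genes named as chemoreceptors of the sr and str families (67.9%) and 167 of the 269 named nhr, the nuclear hormone receptors (62.1%). It also holds 42 of the 67 ugt genes, which encode glucuronosyltransferases, and 41 of the 74 cyp genes, which encode cytochromes P450, both used in detoxification. Histone genes (his) are on V in 27 of 72 cases (37.5%). By contrast V holds 7 of the 78 genes named for ribosomal proteins (rps and rpl), which all cells need (8.97%). Not every large family is concentrated on V. It holds 3 of the 89 genes named math, bath or btb, of which 76 are on II. Of the 322 F-box genes 87 are on V and 107 on II. V also holds 31 of the 156 collagen genes (19.9%). Its share of the C-type lectin genes is higher, at 85 of 239 (35.6%), more than on any other chromosome. These counts describe another genome build than that of the peaks, so they are background for the chromosome as a whole, and no peak was assigned to a gene. All positions below are on WormBase build WS180.

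Chromosome V had the lowest peak density of the 6 chromosomes. It carried 28.0 peaks per Mb (exact 95% Poisson interval 25.8 to 30.4), against 45.9 on II (42.5 to 49.4), 53.4 on III (49.6 to 57.4), 48.7 on IV (45.5 to 52.1) and 34.6 on X (31.9 to 37.4). These intervals cover counting error only and are too narrow for comparing chromosomes. Counts per 1 Mb block of V had a variance 9.34 times their mean. Chromosome I stood apart from all others in this list, with 201 peaks per Mb and lower q values at a given width, and is therefore set beside V but kept out of the pooled comparisons. In blocks of 1 Mb, V averaged 28.1 ± 16.2 peaks per Mb (SD over 21 blocks), and II, III, IV and X together averaged 45.0 ± 19.0 (SD over 64 blocks). The ratio of V to those 4 chromosomes was 0.624 (95% interval 0.481 to 0.811), a difference that passed a quasi-Poisson regression over blocks (n = 21 and n = 64 blocks, two-sided p = 0.000568, Benjamini-Hochberg adjusted over 7 tests 0.00353).

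Set against single chromosomes, V was lower than 4 of the 5 others, with p-values adjusted over the 5 pairs. The ratio was 0.624 to II (95% interval 0.456 to 0.855, n = 21 and n = 15 blocks, adjusted p = 0.00462). It was 0.525 to III (0.386 to 0.714, n = 21 and n = 14, adjusted p = 0.000178) and 0.576 to IV (0.427 to 0.777, n = 21 and n = 17, adjusted p = 0.000716). To chromosome I it was 0.139 (0.108 to 0.179, n = 21 and n = 15, adjusted p = 3.66e-27). Chromosome I had been set apart for its density in this same list, so the outcome of that pair was known beforehand. Against X it was 0.810, and this difference missed the threshold (0.587 to 1.12, n = 21 and n = 18, adjusted p = 0.196). For peaks of at least 1 kb the ratio to X was 0.750, with an interval that ended just below 1 (0.564 to 0.997, n = 21 and n = 18, adjusted p = 0.0475). For covered sequence the ratio to X was 0.822 and missed the threshold (0.630 to 1.07, n = 21 and n = 18, adjusted p = 0.150). The spread in these regressions is that between blocks of the genome, and each chromosome is a single specimen. Neighbouring blocks of V resembled each other (Pearson's r = 0.53 over 20 neighbouring pairs), so the p-values may be too small. The list's own q values place 103 regions ahead of the first listed peak, which were not analysed here. If all 103 lay on V, its density would be 33.0 per Mb.

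**Figure D1:**
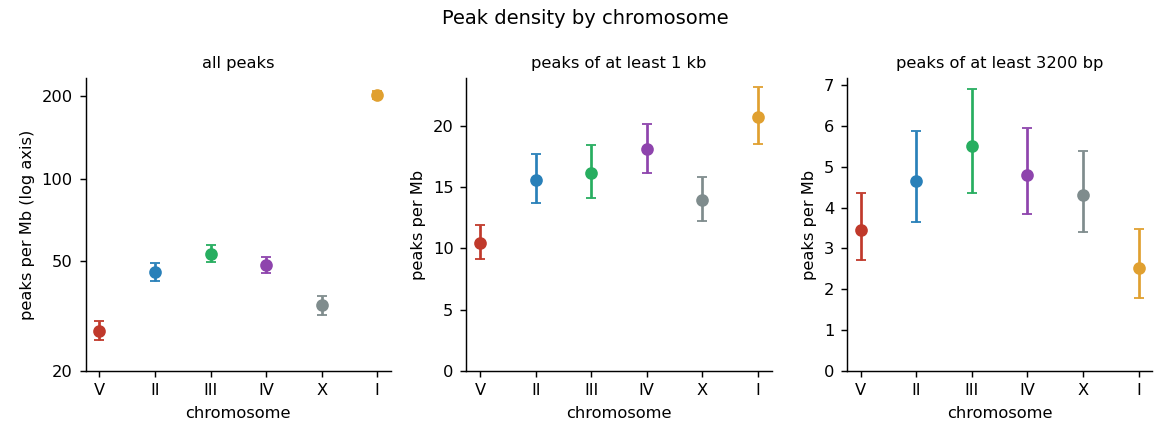
Peaks per Mb on each chromosome for all peaks (log axis), peaks of at least 1 kb and peaks of at least 3200 bp, with exact 95% Poisson intervals as bars. The bars cover counting error only, not the spread along the chromosome. V, at 28.0 per Mb, is the lowest for all peaks and, at 10.5 per Mb, for those from 1 kb up, and second lowest after I for peaks of at least 3200 bp (3.45 per Mb).

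The low density of V was seen for narrow and wide peaks. The chromosome had 10.5 peaks of at least 1 kb per Mb (9.12 to 11.9), against 16.0 on II, III, IV and X together, a ratio of 0.660 (95% interval 0.518 to 0.841, quasi-Poisson regression, n = 21 and n = 64 blocks, adjusted p = 0.00353). Sequence covered by peaks came to 38.3 kb per Mb on V, against 55.2 kb per Mb on the other 4, a ratio of 0.697 (0.556 to 0.872, n = 21 and n = 64, adjusted p = 0.00450). In each of the 6 width classes below 3200 bp V was the sparsest of all 6 chromosomes. Its density was closest to that of the other 4 for peaks under 100 bp, at 4.65 against 6.07 per Mb, a ratio of 0.767. It was furthest below for peaks from 100 to under 200 bp, at 2.25 against 4.87 per Mb, a ratio of 0.463. These ratios by class were not tested singly.

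The widths of V peaks were not shown to differ from those elsewhere. The median width was 570 bp, with quartiles of 200 and 1775 bp, against a median of 557 bp and quartiles of 200 and 1619 bp for II, III, IV and X together. The share of peaks of at least 1 kb was 37.3% on V (218 of 584, exact 95% binomial interval 33.4 to 41.4) and 35.3% on the other 4 (33.6 to 37.1). The odds ratio was 1.09, with an interval from 0.871 to 1.37, and did not pass a quasi-binomial regression over blocks (adjusted p = 0.519). At the top of the range, 72 peaks of V (12.3%, 9.77 to 15.3) were at least 3200 bp wide, against 10.6% (9.51 to 11.8) on the other 4. These 72 peaks held 50.1% of the sequence covered on V, while the 97 peaks under 100 bp, 3 of them 1 bp wide, were 16.6% of its peaks. The widths nearest the limits were 986 and 1005 bp at 1 kb, and 3197 and 3207 bp at 3200 bp.

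The q values of V, which are the authors' own, covered a similar range to those of II, III, IV and X. They ran from 7.35e-301 to 0.00979, with a median −log10 q of 4.36, against 4.70 on II, III, IV and X together. Wide peaks had the lower q: the median −log10 q was 3.26 for peaks under 100 bp, 3.70 from 400 to under 800 bp, 16.0 from 1600 to under 3200 bp and 45.5 from 3200 bp up. In the same classes the other 4 chromosomes together had medians of 3.26, 4.34, 16.5 and 49.8. On chromosome I the medians were 4.08, 17.3, 85.5 and 192. Width and −log10 q were correlated across the 584 peaks of V with a Spearman's rho of 0.61, and on the other chromosomes with values between 0.60 on III and 0.84 on I. Peaks of 1 chromosome share the same libraries and are not independent replicates.

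**Figure D2:**
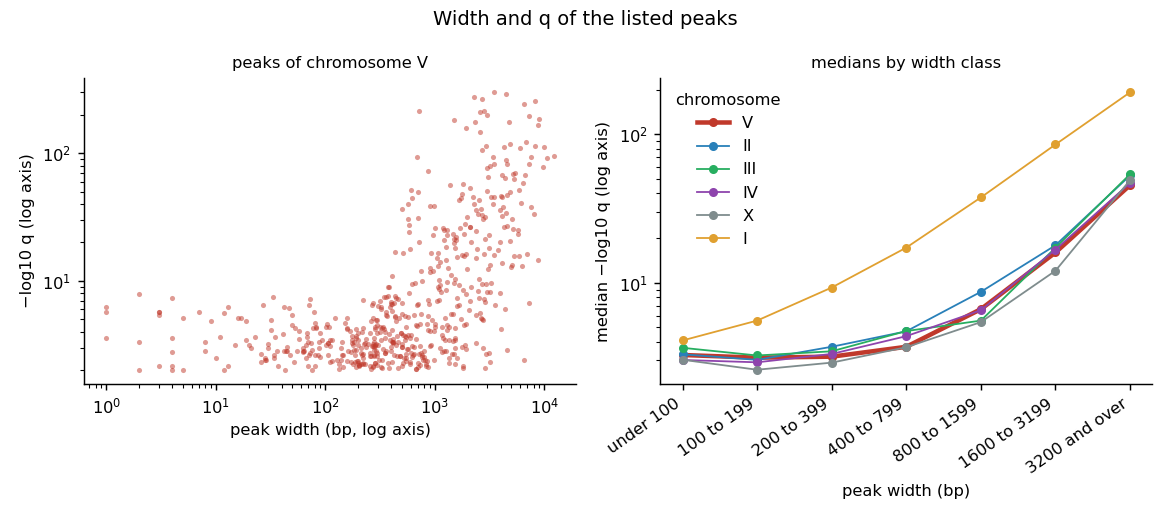
Left, width and −log10 q of each of the 584 peaks of V (both log axes). Right, median −log10 q in 7 width classes for each chromosome (log axis). V lies close to II, III, IV and X, at 45.5 for peaks from 3200 bp up, while I, at 192 there, lies above them in each class.

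The share of V among the listed peaks with the lowest q was as follows, with the 103 regions ranked ahead of them not analysed here. Of the first 100 rows of the list, which lie outside chromosome I in 63 cases, V held 16, or 25.4% of the 63 (exact 95% binomial interval 15.3 to 37.9). Over the whole list it held 16.8% of the 3479 peaks outside chromosome I (15.6 to 18.1), and the intervals overlap. Among the first 500, 1000 and 2000 rows its share of the peaks outside I was 17.5%, 19.0% and 18.0%, close to that of the whole list. A −log10 q over 100 was reached by 26 peaks of V, 4.45% of its peaks (2.93 to 6.46), and by 110 of the 2895 on II, III, IV and X, for which the interval was 3.13 to 4.56%. Per Mb, V held 1.25 such peaks and the other 4 held 1.72.

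The peak of V with the lowest q spanned 3480 bp at 9342846 to 9346325 (q = 7.35e-301) and was the third row of the list. The next was a 4508 bp region at 16592118 to 16596625 (q = 2.28e-289), on the right arm. Their surroundings differed: the block of 1 Mb around the region at 9342846 held 37 peaks, and that around the region at 16592118 held 9. Then came regions of 2272 bp at 12352778 to 12355049 (q = 5.41e-275), of 2686 bp at 13907109 to 13909794 (q = 2.49e-264) and of 8295 bp at 13783078 to 13791372 (q = 1.48e-258). The left arm gave the sixth, of 6562 bp at 1152384 to 1158945 (q = 4.07e-244), and the seventh, of 2817 bp at 6276094 to 6278910 (q = 6.21e-216).

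The eighth stood out by its width, which was only 724 bp, at 9088588 to 9089311 (q = 3.92e-215). For peaks of V from 400 to under 800 bp the median −log10 q was 3.70, and this peak, at 214, was the highest of that class on any chromosome. Last among the 10 were regions of 2608 bp at 18637529 to 18640136 (q = 3.57e-212) and of 2965 bp at 20157361 to 20160325 (q = 2.43e-200), both on the right arm. Of the 10, 4 lay in the middle 33.3% of the span, 2 to its left and 4 to its right. For all 584 peaks those numbers were 282, 165 and 137.

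The widest region of V spanned 12203 bp at 8415098 to 8427300 (q = 6.14e-96), and the next 10668 bp at 16776688 to 16787355 (q = 2.92e-93). Widths of 9865 bp at 20771392 to 20781256 (q = 1.07e-111) and of 9787 bp at 10711718 to 10721504 (q = 1.47e-78) followed. The region of 10668 bp lay in sparse sequence, with no listed peak in the 178 kb before it. Regions of 8840 bp at 13082064 to 13090903 (q = 2.25e-186) and of 8809 bp at 4819921 to 4828729 (q = 2.29e-168) came next, then 1 of 8697 bp at 7803467 to 7812163, whose q of 2.47e-15 was far weaker than that of the others. The 8295 bp region at 13783078 to 13791372 was the only one among both the 10 widest and the 10 with the lowest q. The last of the 10 widest measured 8198 bp at 3769108 to 3777305 (q = 3.05e-115) and 7958 bp at 15658188 to 15666145 (q = 4.77e-34).

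Width and q parted company at both ends. Among peaks of at least 3200 bp, the highest q was 0.00395, for a region of 6507 bp at 7075519 to 7082025. The next were a q of 0.00143 for 4597 bp at 10958406 to 10963002 and of 6.84e-05 for 4021 bp at 17935783 to 17939803. Regions of 4356 bp at 11531787 to 11536142 (q = 9.94e-07) and of 3552 bp at 12539186 to 12542737 (q = 3.24e-07) completed the 5. Among peaks of at most 200 bp, the lowest q, 1.40e-08, belonged to a peak of 2 bp at 11899111 to 11899112. It was followed by peaks of 33 bp at 6401615 to 6401647 (q = 3.49e-08), of 4 bp at 6320682 to 6320685 (q = 5.02e-08), of 73 bp at 11650332 to 11650404 (q = 5.93e-08) and of 71 bp at 14267710 to 14267780 (q = 3.60e-07). All 5 were thus under 100 bp. The 22 peaks of V of at most 10 bp had a median −log10 q of 3.54, against 3.12 for the 47 peaks from 100 to under 200 bp.

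Along V, peaks formed a broad central zone between sparse arms. With the centre taken as the middle 33.3% of the span, the centre held 282 peaks, 48.3% of those on V (exact 95% binomial interval 44.2 to 52.4), at 40.6 per Mb (36.0 to 45.6). The left arm held 165 at 23.7 per Mb (20.3 to 27.7), and the right arm 137 at 19.7 per Mb (16.6 to 23.3). The 7 central blocks of 1 Mb ran from 29 to 60 peaks, with a mean of 40.7 ± 11.8 (SD), and the 14 arm blocks from 8 to 51 peaks per Mb, with a mean of 21.7 ± 14.4 (SD), so the groups overlapped. The ratio of centre to arms was 1.89 (95% interval 1.17 to 3.04 from the quasi-Poisson regression). With blocks of 500 kb, 14 in the centre and 28 on the arms, the ratio was the same and passed the threshold (n = 14 and n = 28, two-sided p = 0.00154, adjusted over the 7 tests made with such blocks 0.00269). Those smaller blocks of the same chromosome are less independent, so their p-value may be too small. Covered sequence followed the same course, at 54.3 kb per Mb in the centre, 29.9 kb on the left arm and 30.7 kb on the right arm.

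The ratio of centre to arms was 1.70 on III (1.27 to 2.28), and on II, IV and X it was 1.40 (0.817 to 2.39), 1.46 (0.995 to 2.15) and 1.10 (0.759 to 1.60), with intervals that include 1. The ratio of V was 1.24 times that of II, III and IV (95% interval 0.762 to 2.03 in the regression with an interaction term). With blocks of 500 kb it was 1.28 times (0.854 to 1.91, n = 14 and n = 30 in the centres, p = 0.231, adjusted 0.324). A stronger contrast on V than on the other 3 was therefore not shown, and an equal one was not shown either. On V itself the left arm was 1.24 times as dense as the right (0.553 to 2.77), and this did not pass with blocks of 500 kb (0.681 to 2.25, n = 14 in each arm, p = 0.471, adjusted 0.471).

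**Figure D3:**
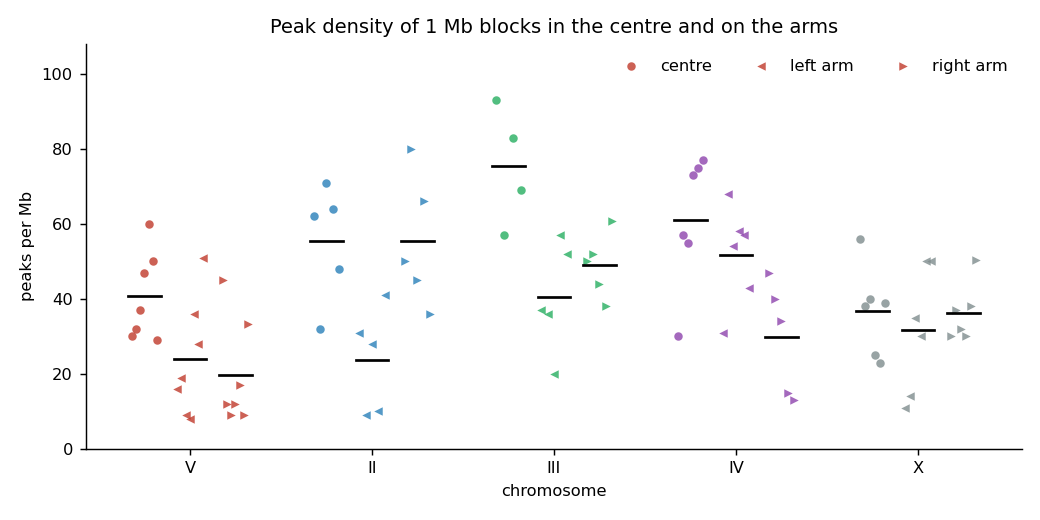
Peaks per Mb in each 1 Mb block of the centre (circles), left arm and right arm (triangles) of V, II, III, IV and X, with a line at the mean of each of the 3 groups. The central blocks of V run from 29 to 60 with a mean of 40.7, above the means of both arms, whose blocks run from 8 to 51.

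Peaks of the arms and the centre of V overlapped in width and in q. The median width was 585 bp in the centre, 505 bp on the left arm and 575 bp on the right arm, and the share of peaks of at least 1 kb was 37.9% in the centre (32.3 to 43.9), 38.8% on the left arm (31.3 to 46.7) and 34.3% on the right arm (26.4 to 42.9). The intervals of the 3 shares overlap. Regions of at least 3200 bp numbered 33 in the centre, 19 on the left arm and 20 on the right arm. Peaks with a −log10 q over 100 numbered 11, 7 and 8 in the same order. The median −log10 q was 4.53 in the centre, 4.35 on the left arm and 4.26 on the right arm.

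Blocks of 1 Mb showed where the zones began and ended. The 3 densest ran from 11 to 12 Mb with 60 peaks (exact 95% Poisson interval 45.8 to 77.2), from 6 to 7 Mb with 51 (38.0 to 67.1) and from 12 to 13 Mb with 50 (37.1 to 65.9). The sparsest was 3 to 4 Mb with 8 peaks (3.45 to 15.8), and the blocks from 2 to 3, 16 to 17 and 19 to 20 Mb held 9 each (4.12 to 17.1). The blocks from 15 to 16 and from 17 to 18 Mb came next, with 12 each. Of the 21 blocks of V, 9 held fewer than 20 peaks per Mb, against 6 of the 64 blocks of II, III, IV and X. Covered sequence peaked elsewhere than the count. It was highest from 14 to 15 Mb, at 68.4 kb per Mb with 45 peaks, and in the block with most peaks it was 57.9 kb per Mb.

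Read along the chromosome, with bounds chosen after the block values were seen, the first 2 Mb held 17.5 peaks per Mb (12.2 to 24.3) and the next 2 Mb held 8.50 (4.95 to 13.6). From 4 to 15 Mb there were 445 peaks at 40.5 per Mb (36.8 to 44.4), or 76.2% of the peaks of V on 52.8% of its span. From 15 to 20 Mb there were 59, at 11.8 per Mb (8.98 to 15.2). The remainder beyond 20 Mb, 0.844 Mb up to the last peak, held 28 peaks at 33.2 per Mb (22.05 to 48.0). Its covered sequence, 55.1 kb per Mb, was close to the 53.0 kb per Mb of the zone from 4 to 15 Mb. The right end of V was thus a dense segment beyond a sparse one. The last peak, of 4427 bp at 20839378 to 20843804 (q = 1.77e-89), closed that segment, while the first, at 34328 to 34477, was 150 bp wide with a q of 2.05e-05.

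**Figure D4:**
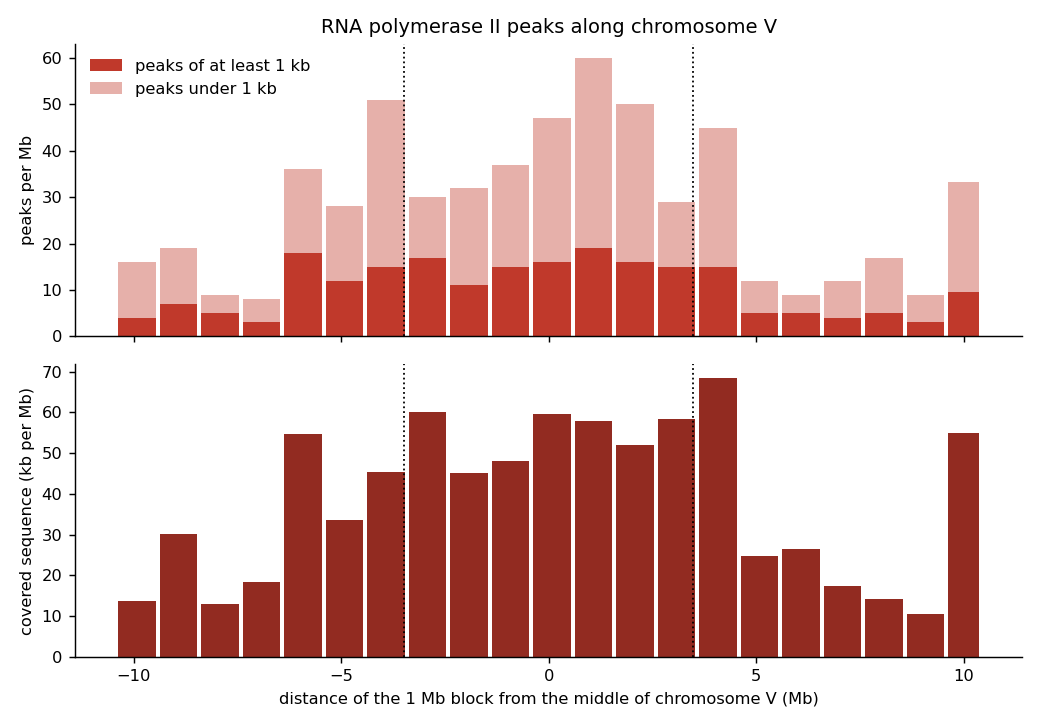
Peaks per Mb (top, split at a width of 1 kb) and covered sequence in kb per Mb (bottom) in the 21 blocks of V, by distance of the block from the middle of the chromosome; dotted lines bound the middle 33.3%. Counts reach 60 just right of the middle, fall to 8 and 9 on the arms and are at 33.2 per Mb in the last block.

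Long stretches without listed peaks made up much of V. Its 583 gaps between neighbouring peaks had a median of 10932 bp, against medians from 4594 bp on IV to 10417 bp on X among chromosomes II, III, IV and X. Gaps of at least 100 kb numbered 48 and added up to 43.6% of the span of V, while on II, III, IV and X they numbered 23, 18, 32 and 37 and took up 26.96%, 17.3%, 26.7% and 33.6% of the span. Chromosome I had 0. Of the 10 longest gaps in the list 6 lay on V, 2 on II and 2 on X. Windows of 100 kb gave the same picture: 46 of the 208 windows of V held 0 peaks (22.1%), against 4.38% on III, 10.9% on IV, 11.8% on II and 11.9% on X. At the other end, 4 windows of V held 10 or more peaks, the fullest being that from 11.0 to 11.1 Mb with 16. Gaps and windows depend on density and were not tested.

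The longest gap on V measured 587 kb, from 2731636 to 3318497, and was second in the list to 1 of 747 kb on II. It ended at a peak of 2 bp. Counting only peaks of at least 100 bp, the stretch ran on to 3578927 and measured 847 kb, the longest on V by that count. The second gap, of 532 kb, ran from 17348092 to 17879942, and the third, of 525 kb, from 2135832 to 2660374. Together the first and the third bracket a small group of peaks near 2.7 Mb on the left arm.

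The next, of 472 kb from 19051660 to 19523943 and of 330 kb from 18238929 to 18569414, lay on the right arm, as did the sixth, of 313 kb from 15198486 to 15511651, and the seventh, of 291 kb from 19612958 to 19904411. The eighth, of 261 kb from 7466919 to 7727734, was the only one of the 10 in the centre. The ninth, of 234 kb from 16788589 to 17023032, was again on the right arm, and the tenth, of 197 kb from 5772014 to 5969241, on the left. Gaps of at least 100 kb took up 23.0% of the centre of V and 53.9% of its arms. The same shares were 16.5% and 32.2% on II, 4.52% and 23.7% on III, 6.73% and 36.7% on IV, and 32.8% and 34.0% on X. With narrower peaks left out, the longest gap between peaks of at least 1 kb on V was 1120 kb, from 16787356 to 17907390.

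**Figure D5:**
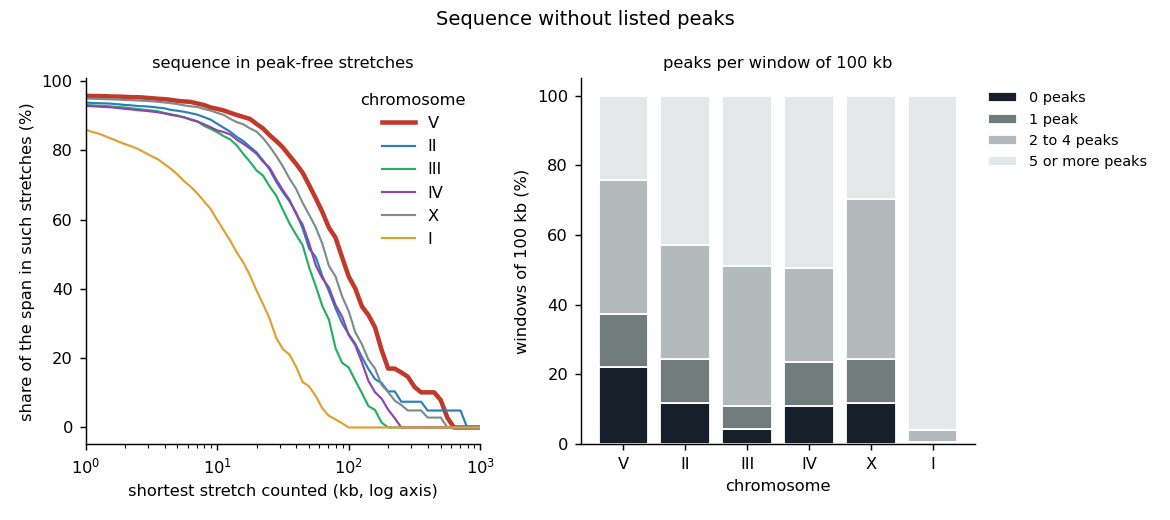
Left, share of each chromosome's span in gaps of at least a given length (log axis). Right, share of 100 kb windows with 0, 1, 2 to 4 and 5 or more peaks. For gaps of at least 100 kb V is highest, at 43.6%, and 22.1% of its windows are empty, more than on any other chromosome.

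V had the lowest share of peaks with a close neighbour. Such shares and the sizes of groups depend on peak density, which was also lowest on V, and were not tested. At a distance of at most 1 kb, 190 of its 584 peaks had one (32.5%, exact 95% binomial interval 28.7 to 36.5), against 41.6% on II, 40.3% on III, 43.8% on IV and 37.2% on X, where the interval of 33.4 to 41.2 overlaps that of V. At 5 kb the share was 60.1% on V (56.0 to 64.1), and on II, III, IV and X it ran from 63.0% on X to 74.5% on IV. Joined at gaps of at most 1 kb, the peaks of V fell into 478 groups, of which 394 were single peaks, 65 pairs, 16 triples and 3 groups of 4. The largest group on V thus held 4 peaks, while II reached 8, III and IV 7 and X 6. No gap in the list was shorter than 200 bp, so regions closer than that do not appear as separate peaks. Of the 144 peaks of V under 200 bp, 8 lay within 1 kb of a peak of at least 1 kb (5.56%, 2.43 to 10.7), against 8.27% (6.34 to 10.6) on II, III, IV and X. The widths of neighbouring peaks on V were nearly uncorrelated (Spearman's rho 0.02 over 583 pairs).

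The 3 groups of 4 lay at 14361521 to 14371431, at 14194375 to 14200563 and at 5408485 to 5413439. The first of these spanned 9911 bp and was mainly 1 region of 7612 bp with small companions, the narrowest of 42 bp. In the group at 5408485, by contrast, no member was wider than 1771 bp. The longest groups of 3 lay at 13783078 to 13797457, spanning 14380 bp and including the 8295 bp region named above, and at 20403220 to 20415764, spanning 12545 bp with members of 2757 to 6429 bp. Of the 72 regions of at least 3200 bp on V, 24 had a neighbour within 1 kb (33.3%, 22.7 to 45.4), against 45.9% (40.3 to 51.7) of the 307 on II, III, IV and X. These shares too depend on density and were not tested.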

How the data were processed

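ChIP-seq for RNA polymerase II was done in 2 ChIP libraries, with 2 input libraries. Per the labels' protocols, larvae were cross-linked with 2% formaldehyde and sonicated. The shared protocol text speaks of an anti-GFP serum and embryos, while the sample labels name 8WG16 and L3, which were followed. Per the file headers the positions are on WormBase build WS180, read as 1-based and closed (GFF3), and the deposited list names PeakSeq as caller. PeakSeq compares ChIP reads with a scaled input. The sources used here do not state its version, the aligner or how the replicates were joined. The deposited q-values, all below 0.01, served only to rank, describe and filter peaks. The list gives no counts, so depth is unknown. Exact intervals cover counting error only, and those of regressions the spread along the genome.

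The end of the last peak on a chromosome was taken as its length. Peaks were assigned by midpoint to blocks of 1 Mb (a final block shorter than 0.5 of that was dropped). Regressions (statsmodels 0.14.6, log length as offset, dispersion from Pearson's chi-square, t limits) compared V with II, III, IV and X. They were also run on simulated data with independent blocks, which cannot check the effect of resemblance between neighbouring blocks. For centre and arms, with fewer than 10 blocks in a group, p-values come from blocks of 500 kb, a departure from the plan of 1 Mb. The p-values with blocks of 1 Mb fell on the same side of 0.05. For centre against arms on V only the p-value with blocks of 500 kb is printed. The p-value with blocks of 1 Mb was larger. The first interval given for that ratio is the one with blocks of 1 Mb. Smaller blocks are less independent. Unlisted ranks were found from q times rank: 2414 neighbouring rows were equal (relative tolerance 1e-10) with 103 ranks placed first, and 0 with any other number up to 500.

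Named regions of V are the 10 lowest q, 10 widest, 10 longest gaps, 5 narrow with lowest q, 5 wide with highest q, 5 groups with most peaks (ties by length), 3 densest and 5 sparsest blocks, and the first and last peak. The part of the genome, the lists and the tests were chosen with earlier results of these data known. No annotation or sequence of build WS180 was used here, so no gene or sequence is given for a peak.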

Additional observations from a re-analysis of the deposited data

How the results depend on the processing

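Over 7 tested results, 34 of 35 alternatives kept both direction and call. The alternatives were blocks of 500 kb and 2 Mb, the best 50% of peaks by q outside chromosome I, merging within 500 bp, covered base pairs, a centre of 50% of the span, a limit of 2 kb for wide peaks, and other sets of chromosomes beside V. The density ratio of V ran from 0.374 with chromosome I among the others to 0.669 with merged peaks, and the ratio of centre to arms from 1.81 for covered base pairs to 2.31 with the wider centre. The exception was the odds ratio for peaks of at least 1 kb, which was 2.06 and passed the threshold with chromosome I included (1.28 to 3.32), where 10.3% of peaks reach that width. The contrast of centre and arms between V and II, III and IV passed in none of its 6 alternatives and came closest with blocks of 2 Mb (1.60, 95% interval 0.917 to 2.79). Descriptive shares moved with their definition. Neighbours within 2 kb were found for 42.6% of V peaks, and neighbours within 1 kb for 16.0% after merging within 500 bp. Gaps of at least 50 kb took up 70.2% of V. Gaps of at least 100 kb took up 68.3% with the best 50% of peaks and 52.3% with peaks of at least 100 bp, the last chosen after seeing the data. No paired analysis was possible because the list has no value per replicate, and for the same reason no replicate could be left out.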
